A study of Ginkgo biloba with 2 samples.

Results

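Extensins, arabinogalactan proteins, proline-rich, glycine-rich and nodulin-like proteins were followed in 2 organs of female *Ginkgo biloba*, the maidenhair tree, namely mature ovules and leaves that were fully expanded. The members were all reference sequences whose best protein match is described as extensin, arabinogalactan, fasciclin, proline-rich, LRX, nodulin, glycine-rich cell wall, hydroxyproline-rich or plastocyanin-like. They numbered 68 of 64515 sequences, of which 46 were assembled and 22 came from GenBank. Both tissues were harvested in 2012, and RNA of the whole organ was sequenced as 1 library per tissue, so neither tissue has a replicate. How many trees gave the tissue is not given in the sources used here. All differences below therefore compare these 2 libraries and carry no p-value. In whole organs, a larger share of cells of one type and more RNA per cell cannot be told apart.

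Many proteins with these names sit in the wall or on the outer face of the plasma membrane. Members were chosen by description, and their location was not tested. Extensins are rod-like wall glycoproteins whose prolines are hydroxylated in the secretory pathway, decorated with short arabinose chains, and later cross-linked into the wall by peroxidases. Arabinogalactan proteins carry large branched sugar chains and are often tethered to the membrane by a lipid (GPI) anchor, and the fasciclin-like ones add a domain known for cell adhesion. Nodulins were first named in the root nodules of legumes, and many nodulin-like proteins occur in plants that form no nodules. No member was described as a nodulin transporter or as a lipid-transfer-type proline-rich protein.

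In units of 1000000, the uniquely mapped reads numbered 4.58 in the ovule library and 4.25 in the leaf library. Levels are RPKM, reads per 1000 bases of sequence and per 1000000 mapped reads, and folds are ratios of reads per 1000000 with an exact 95% Clopper-Pearson interval, which covers counting error only. A fold against 0 reads sets the empty library at 3 reads and takes the other count as exact. It is written "at least", and can lie above the lower limit of the exact interval. Ratios on the log2 scale are log2((ovule RPKM + 0.5)/(leaf RPKM + 0.5)). This scale understates the difference of weak sequences that have reads in both libraries. With 0 reads in 1 library it can give a call on few reads, as for CL3558.Contig2, at -2.66 on 2 leaf reads. Sequences reaching an RPKM of 1 in 1 or both libraries passed the filter, and those whose log2 ratio was 1 or more, or -1 or less, count as higher in ovule or in leaf. By summed reads, markers followed the labels. Antenna proteins and Rubisco activase drew 6609 ovule and 23198 leaf reads. The MADS-box and AINTEGUMENTA list drew 1964 ovule and 167 leaf reads (10.9-fold, 9.30 to 12.8). GbMADS8, a GenBank sequence, held 1012 of these ovule reads and 1 of the leaf reads. Without it the list had 952 and 166, a 5.31-fold difference (4.50 to 6.30). By number that second list pointed both ways. Of its 22 sequences past the filter, 12 counted toward ovule (54.5%) and 8 toward leaf (36.4%). Over all sequences these shares were 27.3% and 35.1%. Sequences of dividing cells (histones, kinesins and others) had 7925 reads in ovule and 1257 in leaf. Pollen-allergen homologues had 2241 and 5536, and 3 sequences named for xylem or laccase had 505 and 91. Of these last, Unigene17352 alone held 502 and 10, and the rest had 3 ovule and 81 leaf reads (29.1-fold toward leaf, 9.62 to 144). The part of these cell types in the results below was not tested.

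Surface-protein transcripts took a far larger share of the ovule library. The 68 members held 37553 reads in ovule (0.820% of the library) and 3644 in leaf (0.0858%), 9.55-fold higher in ovule (9.23 to 9.88). The early nodulin from GenBank and the extensin Unigene342 supplied 61.9% of the ovule reads of the set. Without them the counts were 14303 in ovule and 3631 in leaf, and the excess was 3.65-fold (3.52 to 3.79). Of the 50 sequences with the highest RPKM in ovule 7 were members, and of the 50 highest in leaf 0 were. An RPKM of 100 was reached by 15 members in ovule (22.1%) and by 2 in leaf (2.94%), where 2.41% and 1.85% of all sequences did so.

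By number, the members pointed both ways. Of the 68, 32 were higher in ovule, 15 higher in leaf, 11 had a log2 ratio between -1 and 1, and 10 lay below the filter. Over the 56768 sequences of the whole reference that passed, the ovule call was made for 27.3% and the leaf call for 35.1%, against 55.2% and 25.9% of the 58 members past it. These shares depend on depth. With at least 20 reads they were 33.9% and 20.7% over all sequences, and 65.1% and 20.9% in members. The median log2 ratio of those 58 was 1.49, and -0.10 over all sequences. It was 0.88 with an empty library set at 3 reads, the upper limit for a count of 0, and 1.05 over all 68 members with no filter. Of the 58 members, 14 differed at least 16-fold on this scale toward ovule and 3 toward leaf. Over all sequences 2.78% and 2.04% differed that much. The counting interval excluded a ratio of 1 for 28 ovule calls and 8 leaf calls of the 58. Over all sequences the shares were 17.3% and 13.6%. On the leaf side the members thus lay near the share of all sequences.

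**Figure D1:**
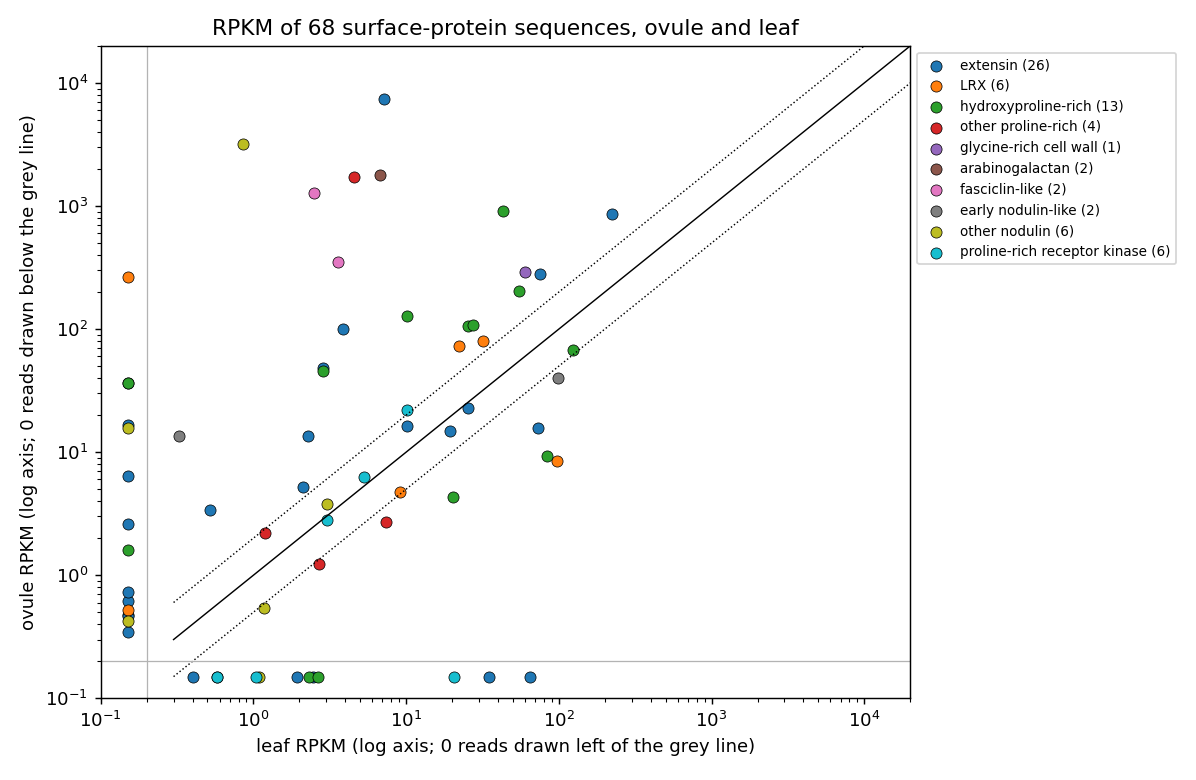
RPKM of the 68 members in ovule (vertical) and leaf (horizontal), both on log axes, 1 point per sequence and 1 colour per class. The solid line marks equal levels and the dotted lines 2-fold, and sequences with 0 reads lie beyond the grey lines. In ovule 5 members lie above 1000, all of them under 10 in leaf, and no member reaches 1000 in leaf.

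Extensins formed the largest class, with 26 sequences, and pointed mostly to ovule. Of these 12 were higher in ovule, 5 in leaf, 3 under 2-fold and 6 below the filter. The calls were 60% and 25% of the 20 past the filter, beside 27.3% and 35.1% over all sequences. Unigene342, an extensin-3-like sequence, had the highest RPKM of all sequences in the ovule library, at 7456, but ranked 16760 in leaf, at 7.16 (1041-fold, 566 to 2172). Its 11239 ovule reads covered 88.15% of its 329 bases and its 10 leaf reads 78.12%. The class as a whole had 13773 reads in ovule and 943 in leaf, a 13.5-fold difference (12.7 to 14.5). Without Unigene342 it was 2.52-fold (2.33 to 2.72).

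The other abundant extensins differed much less. Unigene24279 was the member with the highest leaf RPKM, at 868 in ovule and 224 in leaf (3.88-fold, 3.46 to 4.36). A GenBank extensin-3-like sequence of 348 bases had 282 in ovule and 75.8 in leaf (3.71-fold, 3.01 to 4.61). Both therefore had a clear level in leaf, where Unigene342 had 10 reads. Unigene51578 had 99.7 in ovule and 3.88 in leaf. A GenBank extensin-like sequence of 747 bases had 124 ovule reads and 0 leaf reads, at least 38.3-fold higher in ovule. Those 124 reads covered 91 bases. Unigene25135 had 64 ovule and 10 leaf reads (5.93-fold, 3.02 to 13.0), Unigene40314 36 and 2 (16.7-fold, 4.29 to 143), and a GenBank class I sequence of 450 bases 34 and 0, at least 10.5-fold higher in ovule. Unigene24127 had 24 and 9 reads (2.47-fold, 1.11 to 6.04). Of the 12 ovule calls, 3 rest on few reads and have intervals that include 1, namely Unigene24106 with 7 ovule reads and 1 leaf read (6.49-fold, 0.833 to 292), and Unigene49100 and a GenBank sequence of 421 bases with 5 and 0 each.

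Some extensins were higher in leaf. Leaf calls were 25% of those past the filter, against 35.1% over all sequences and 20.7% over all sequences with at least 20 reads. CL1708.Contig3, an extensin of class I, had 0 ovule reads and 116 leaf reads, at least 41.7-fold higher in leaf, and CL5068.Contig2 had 0 and 49, at least 17.6-fold. Unigene167 stood at 15.8 RPKM in ovule and 72.5 in leaf, a leaf excess of 4.59-fold (3.16 to 6.84). The other 2 leaf calls, Unigene7967 and Unigene5604, rested on 4 and 3 leaf reads, also with intervals that include 1. Unigene12856 had 81 reads in ovule and 83 in leaf, a ratio of 0.904 (0.657 to 1.24).

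Sequences with the same best match did not all point the same way. The 6 sequences whose best match is 1 extensin-3-like protein of *Vitis vinifera* include Unigene342, the GenBank sequence of 348 bases and Unigene167, which point to ovule, ovule and leaf. CL5068.Contig1 and CL5068.Contig2 share a best match and the cluster number of the assembly. Contig1 had 15 ovule and 18 leaf reads, while all 49 reads of Contig2 were from leaf. In all, the 68 members had 46 distinct best matches, and 33 members shared theirs with another, so members are not independent genes and reads of near-identical copies may be split among them.

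LRX proteins join a leucine-rich repeat domain to an extensin domain, and in Arabidopsis they bind RALF peptides in the wall. The 6 sequences gave 3 ovule calls and 1 leaf call. These were 60% and 20% of the 5 past the filter, beside 27.3% and 35.1% over all sequences. The LRX1-like GenBank sequence of 530 bases had 640 ovule reads and 0 leaf reads, at an ovule RPKM of 264, and these reads lay on 43.77% of its bases. Unigene6050 and Unigene6166, both matching LRX4-like proteins, were expressed in both organs. Unigene6050 had 72.9 RPKM in ovule and 22.3 in leaf (3.27-fold, 2.68 to 4.01), and Unigene6166 79.3 in ovule and 31.95 in leaf (2.48-fold, 2.06 to 3.01). Unigene19844 matched a protein described as pollen-specific leucine-rich repeat extensin-like protein 3-like. Its reads were nonetheless mostly from leaf, at 8.42 in ovule and 97.1 in leaf (11.5-fold toward leaf, 8.36 to 16.3). CL237.Contig3, matching pollen-specific leucine-rich repeat extensin-like protein 4 of Arabidopsis, had 14 ovule and 25 leaf reads. Its ratio was 0.519 with an interval that includes 1 (0.249 to 1.04). Summed reads of the class were 1.94-fold higher in ovule (1.78 to 2.12), and 1.15-fold (1.04 to 1.26) without the LRX1-like sequence.

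The 13 sequences described as hydroxyproline-rich glycoproteins, a name that covers extensins and related proteins, split 8 to ovule, 4 to leaf and 1 under 2-fold. The ovule and leaf calls were 61.5% and 30.8%, beside 27.3% and 35.1% over all sequences. Of the 4 leaf calls, CL3558.Contig2 and Unigene30053 rested on 2 and 3 leaf reads, and of the 8 ovule calls a GenBank sequence of 684 bases rested on 5 ovule reads. Unigene23103 led, at 906 RPKM in ovule and 43.1 in leaf (21.0-fold, 15.8 to 28.6), with 99.63% of its bases covered in ovule and 89.18% in leaf. Unigene7700 had 128 in ovule and 10.1 in leaf (12.7-fold, 7.76 to 22.2). The best match of Unigene7700 is an algal protein of *Chlamydomonas incerta*, at a BLAST e-value of 2.63e-06, so its name rests on a weak similarity. The same holds for members of other classes, among them Unigene29194 (1.51e-06), Unigene31094 (1.52e-06) and Unigene7967 (5.70e-06). A GenBank sequence of 701 bases matched a *Volvox carteri* glycoprotein and had 117 ovule reads and 0 leaf reads, at least 36.1-fold higher in ovule. Unigene6210 had 156 ovule and 9 leaf reads (16.1-fold, 8.25 to 35.8), on 95 of its 741 bases in ovule.

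Within this class, 8 sequences share 1 best match, a glycoprotein of *Solanum tuberosum*, and both directions occur among them. GenBank sequences of 678 and 511 bases were higher in ovule, at 203 RPKM in ovule against 54.5 in leaf, and 105 in ovule against 25.4 in leaf. CL1996.Contig1 was also higher in ovule, at 108 and 27.3. CL3558.Contig1 was 9.01-fold higher in leaf (6.11 to 13.7), at 9.28 in ovule and 83.6 in leaf, and CL6068.Contig2 4.70-fold (2.60 to 9.10), at 4.30 and 20.2. Unigene400, at 67.1 in ovule and 123 in leaf, was under 2-fold in the main comparison and past it under TMM scaling and in TPM. Over the 8, reads were 1189 in ovule and 806 in leaf, a 1.37-fold difference (1.25 to 1.50). Without the GenBank sequence of 678 bases they were 557 and 649, or 1.26-fold higher in leaf (1.12 to 1.41).

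Among the other proline-rich sequences, 1 of 4 stood out. Unigene34536, which matches a maize proline-rich protein, had 1716 RPKM in ovule and 4.56 in leaf (376-fold, 173 to 1026) and covered 99.68% of its 310 bases in ovule. The remaining 3 sequences had 13 ovule and 20 leaf reads together, a ratio of 0.602 (0.275 to 1.27). Of these Unigene29194 was called higher in leaf on 6 ovule and 15 leaf reads, with an interval that includes 1. Unigene10258, with 1 ovule and 2 leaf reads, is named for the anther protein APG, a lipase with a proline-rich stretch rather than a structural wall protein. The glycine-rich cell wall protein Unigene6797, matching a spruce protein, had 290 in ovule and 60.4 in leaf (4.81-fold, 4.07 to 5.72).

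**Figure D2:**
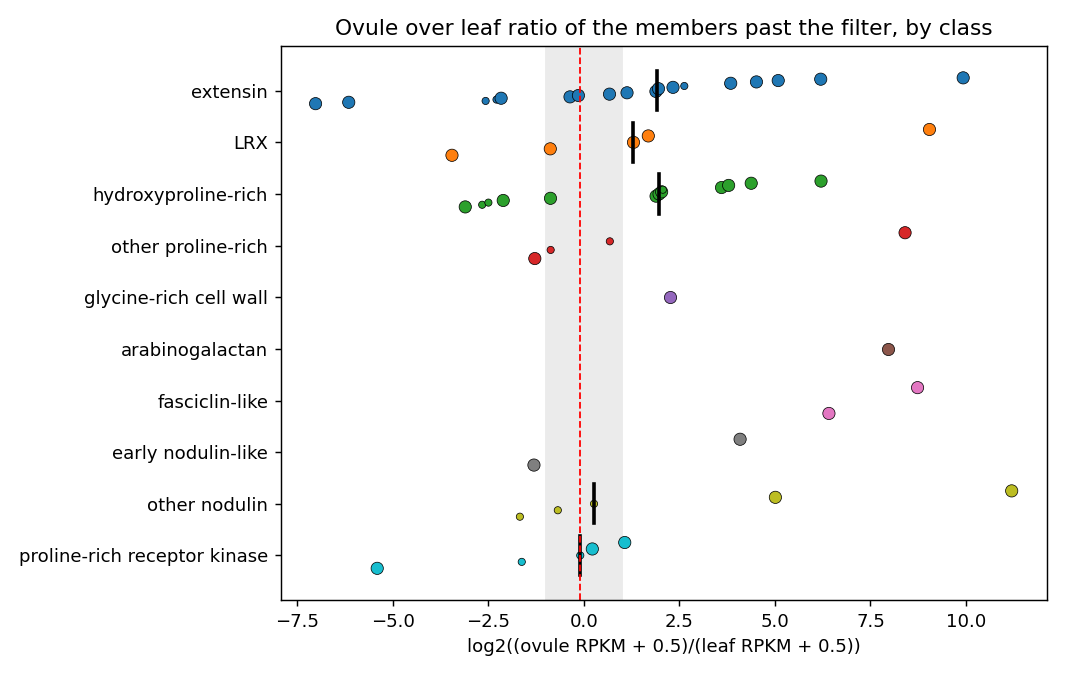
Log2 ratio of ovule over leaf for the 58 members past the filter, 1 row per class and 1 point per sequence, large points for 20 or more reads over both libraries. Black bars are medians of classes with 5 or more members, and the grey band marks log2 ratios between -1 and 1. The red dashed line is the median of all sequences, -0.10. Arabinogalactan and fasciclin-like sequences lie only to the right of the band, while extensins span -7.02 to 9.93.

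Arabinogalactan and fasciclin-like proteins had few leaf reads. Unigene45432, an arabinogalactan-like sequence matching a pine protein, had 1795 in ovule and 6.76 in leaf (266-fold, 129 to 662), and ranked 11 of all sequences by ovule RPKM. Its 2007 ovule reads covered 99.59% of its 244 bases. The second arabinogalactan sequence, Unigene31094, had 0 ovule reads and 1 leaf read and allows no statement. Of the fasciclin-like sequences, Unigene48300 (FLA10-like) had 1267 RPKM in ovule and 2.48 in leaf (511-fold, 141 to 4225, on 2 leaf reads), and Unigene49679, matching cotton FLA13, had 348 and 3.59 (97.0-fold, 32.9 to 473). Together the 2 fasciclin-like sequences had 1417 reads in ovule and 5 in leaf, a 263-fold difference (112 to 810). Both are short, at 190 and 197 bases, and were covered over 98.95% and 96.95% in ovule.

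Nodulin-like sequences comprised 8 members with few that were well covered. The most-read of all members, a GenBank sequence of 821 bases matching an early nodulin of the legume *Maackia amurensis*, had 3193 RPKM in ovule and 0.861 in leaf (3710-fold, 1269 to 17991). Its 12011 ovule reads lay on 34.23% of its bases, about 281, and its 3 leaf reads on 132. Early nodulin 20 belongs in legumes to proteins with a plastocyanin-like domain. Of the 4 sequences named for it, 1 of 642 bases had 46 ovule reads and 0 leaf reads, at least 14.2-fold higher in ovule, and covered 95.02% of its bases. The remaining 3 had at most 2 reads in either library, and the leaf call of 1 of them, of 430 bases, rests on 2 leaf reads. Unigene15365, a nodulin-like sequence, had 8 ovule and 6 leaf reads, and a difference was not detectable at this depth.

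Early nodulin-like proteins, which carry a plastocyanin-like domain and a membrane anchor, went opposite ways. Unigene16724, matching an early nodulin-like protein 2, had 39.9 RPKM in ovule and 99.4 in leaf, a leaf excess of 2.49-fold (2.17 to 2.87). A GenBank sequence of 726 bases, matching early nodulin-like protein 1, had 45 ovule reads and 1 leaf read (41.7-fold, 7.11 to 1683). Summed over both, leaf was 2.16-fold higher (1.89 to 2.47), and Unigene16724 held 292 of their 337 reads in ovule and 674 of 675 in leaf. Phytocyanins outside the text rule were the blue copper proteins, small copper-binding relatives. Unigene25744 had 38.2 in ovule and 10.9 in leaf (3.51-fold, 2.53 to 4.95), and a GenBank sequence of 465 bases had 33.8 and 44.1 (ratio 0.767, 0.553 to 1.06).

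Receptor kinases with a proline-rich outer domain (PERK) are tied to the wall through that domain and were the only members with kinase descriptions. Unigene15464, PERK10-like, had 21.9 in ovule and 10.2 in leaf (2.15-fold, 1.63 to 2.87), a call lost under TMM scaling and in TPM. CL4428.Contig1, PERK9-like, had 6.26 and 5.30, a ratio of 1.18 (0.873 to 1.60). Unigene6056, a 250-base PERK10-like sequence, had no ovule reads (0) against 22 in leaf, which puts it at least 7.91-fold higher there. The other leaf call, Unigene30647, rests on 1 leaf read. Over the 6 sequences, reads were 276 in ovule and 180 in leaf (1.42-fold, 1.17 to 1.72), and 104 and 106 without Unigene15464 (0.909, 0.687 to 1.20).

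**Figure D3:**
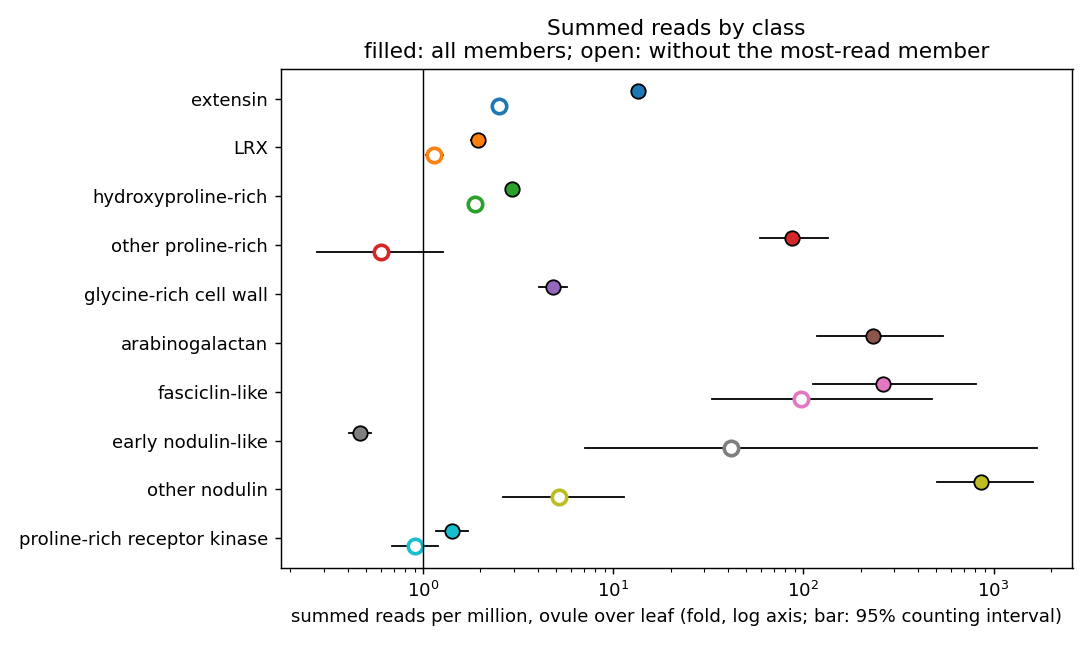
Fold of summed reads per 1000000, ovule over leaf, for each class on a log axis, with bars for the 95% counting interval. Filled points use all members and open points leave out the most-read member. No open point is drawn for the glycine-rich class, which has 1 member, or for the arabinogalactan class, where 1 leaf read remained. For the other proline-rich class the filled point is at 87.3 and the open one at 0.602, and for the early nodulin-like pair they are at 0.463 and 41.7.

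The reads of many members were confined to part of the sequence. Of the 25 members with at least 100 ovule reads, 11 (44%) had less than 50% of their bases covered, where 14.4% of the 8626 sequences with that many reads did. Median coverage was 63.05% in these members and 90.6% over all such sequences, although the members were shorter, at a median of 511 against 1535 bases. In leaf the figures were 5 of 12 members (41.7%) against 13.4%, and medians of 58.6% and 87.9%. The covered length was alike in both libraries for several sequences: 352 bases in ovule and 347 in leaf for the GenBank glycoprotein of 678 bases, 64 and 64 for CL1996.Contig1, and 493 and 482 for Unigene16724. RPKM divides by the whole length, uncovered bases included, so levels of such sequences are uncertain. The fold, which is taken from reads, does not depend on length. The log2 ratio and the filter do, since both use RPKM. With 5 ovule and 0 leaf reads each, the log2 ratio was 3.79 for Unigene49100 of 170 bases. It was 2.63 for the GenBank extensin of 421 bases and 2.07 for the GenBank glycoprotein of 684 bases. Only uniquely mapped reads were counted, and the part of repeats shared between copies was not tested. Among members past the filter with at least 50% covered in the library of higher RPKM, 17 of 27 were ovule calls and 5 leaf calls, beside 31.9% and 27.9% of all sequences covered that far. With less than 50% covered they were 15 and 10 of 31, beside 21.8% and 43.8%. Ovule calls were thus less frequent and leaf calls more frequent below 50% over all sequences too.

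**Figure D4:**
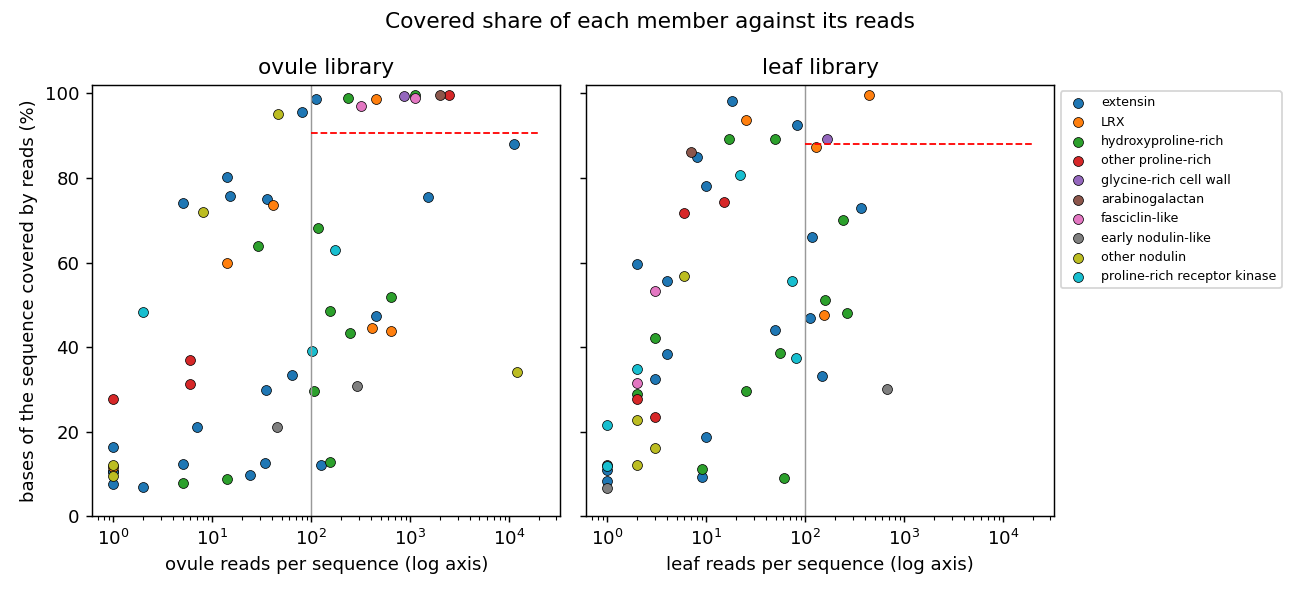
Percent of bases covered against reads per sequence (log axis), for members with 1 or more reads, in ovule on the left and leaf on the right. The red dashed line is the median coverage of all sequences with at least 100 reads, 90.6% in ovule and 87.9% in leaf, drawn from the grey line at 100 reads. Points of the extensin, hydroxyproline-rich, LRX and nodulin classes are among those with over 100 reads that lie below 50%.

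The source of the sequence and the depth moved with the calls. Identifiers of the assembled sequences carry a leaf label (Gink_bil_leaf), and those of GenBank sequences do not. Source and this label therefore cannot be told apart, and the part of the label in the calls was not tested. Of the 14 GenBank members past the filter, 12 were ovule calls and 1 a leaf call, where GenBank sequences in general were called higher in ovule in 55.6% and in leaf in 17.6%. Of the 44 assembled members, 20 were ovule calls and 14 leaf calls (45.5% and 31.8%), where all assembled sequences gave 25.2% and 36.4%. The median log2 ratio was 3.36 in GenBank members and 0.47 in assembled ones. Of the 43 members with at least 20 reads, 28 were ovule calls and 9 leaf calls (65.1% and 20.9%), beside 33.9% and 20.7% of all sequences with that many reads. The 25 members with fewer reads held 48 ovule and 34 leaf reads in all.

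Among enzymes known to modify these proteins, shares of calls are to be read beside the 27.3% ovule and 35.1% leaf calls over all sequences. Over all sequences with at least 20 reads they were 33.9% and 20.7%. Of 4 prolyl 4-hydroxylase sequences past the filter, the enzymes that make hydroxyproline, 2 were ovule calls and 0 leaf calls. Unigene5922 had 33.2 in ovule and 10.4 in leaf (3.19-fold, 2.37 to 4.36), and Unigene11246 38.7 and 42.2. All 5 hydroxylase sequences together drew 390 ovule and 213 leaf reads (1.70-fold, 1.43 to 2.01), and without Unigene5922 the ratio was 1.14 with an interval that includes 1 (0.914 to 1.41). Beta-1,3-galactosyltransferases, a family that includes enzymes adding galactose to hydroxyproline, had 4 of 9 higher in ovule and 0 in leaf. The largest of these, CL4999.Contig2, stood at 50.3 and 12.3 (4.10-fold, 3.23 to 5.25), and summed reads of the family were 1.89-fold higher in ovule (1.75 to 2.05). Assembly of the GPI anchor had 5 of 10 higher in ovule and 0 in leaf, and its summed reads were 1.995-fold higher in ovule (1.80 to 2.22). COBRA proteins, which are not modifying enzymes but GPI-anchored proteins needed for cellulose orientation in Arabidopsis, had 2 of 4 and 0, with Unigene17550 at 36.4 and 16.9. No test of these lists against the members was made.

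Sequences named for RALF peptides and for FERONIA and THESEUS receptors went both ways. The RALF34-like peptide precursor Unigene26553 had 143 RPKM in ovule and 7.67 in leaf (18.7-fold, 12.3 to 29.8). The receptor kinases FERONIA and THESEUS, which sense RALF peptides or wall damage in Arabidopsis, had 4 of 9 sequences higher in ovule and 2 in leaf. Their summed reads were 520 in ovule and 891 in leaf, a leaf excess of 1.85-fold (1.66 to 2.06). The FERONIA-like Unigene20060 stood at 2.90 in ovule and 35.0 in leaf, a leaf excess of 12.1-fold (8.74 to 17.2). Without it the summed reads were 480 and 443 (a ratio of 1.004, 0.880 to 1.14). The THESEUS-like Unigene31401 had 71 ovule and 8 leaf reads (8.22-fold, 3.95 to 19.8). Unigene49359, also THESEUS-like, had 25 and 0, at least 7.72-fold higher in ovule. Class III peroxidases, the family that cross-links extensins, had 9 of 18 higher in ovule and 6 in leaf (50% and 33.3%). The leaf share was near the 35.1% over all sequences, and the ovule share stands beside 27.3%. Over all sequences with at least 20 reads the leaf share was 20.7% and the ovule share 33.9%. Summed reads of the peroxidases were 3262 in ovule and 1082 in leaf (2.79-fold, 2.61 to 2.99). Without Unigene11250 the difference was 1.69-fold (1.57 to 1.82). Unigene11250 had 570 in ovule and 10.6 in leaf and Unigene47259 537 and 1.78, whereas Unigene7298 had 0.409 and 104 (254-fold toward leaf, 70.0 to 2105).

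Annotation that the choice of members did not use was sparse. Whether it came from the same protein matches as the descriptions was not tested, so it is not separate support. A gene ontology function was attached to 21 of the 68, and 10 of these were annotated as structural constituent of the cell wall, of 15 such sequences in the whole reference. A cellular component was attached to 22, of which 8 were given as integral to membrane and 2 as anchored to the plasma membrane. Lengths ran from 155 to 3554 bases with a median of 459.5, beside 405 over all sequences.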

How the data were processed

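Per the file headers, the authors' table of a library lists, for each reference sequence, a count of reads mapped uniquely, the RPKM, the length, and, as a percent, the bases that reads cover. The title names an integrated de novo assembly; which assembler, aligner, build and BLAST settings the authors used is not stated in the labels. Tested on the deposited tables, reads summed to the header's total and RPKM followed from reads, length and total within 1.4e-08, relative. Tables were joined by identifier, and a sequence listed for 1 library had 0 reads in the other.

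With 1 library per tissue, a count model has no residual degrees of freedom and none was fitted. Folds use reads per 1000000 with exact Clopper-Pearson 95% intervals (scipy 1.17.1, pandas 2.3.3, Python 3.11.15). Intervals cover counting error only, and floors only that of the empty library, since no molecular identifiers are stated. A fold against 0 reads uses 3 reads for the empty library and is written "at least". The counting error of the other library is not in it. For 1000 bases, 3 reads make 0.655 RPKM in ovule, or 0.707 in leaf. TMM factors (edgeR 4.0.16) and size factors (DESeq2 1.42.0) served only as alternative scalings. The interval and call functions were tested on simulated data.

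Members were classed by ordered text patterns; the planned class of proline-rich and hydroxyproline-rich sequences was divided at those names after planning, which adds the 701-base sequence and Unigene29194 to the named ones. Named in each class were sequences with an RPKM of at least 100, the 2 highest in mean RPKM, and the largest call each way with at least 20 reads; this gave 28. Others in the text, including coverage and copy groups, were chosen after their values were seen. Related lists follow text patterns, and no description named an arabinosyltransferase; 1 sequence with that gene ontology function was not in the lists. Members and lists were chosen with earlier results of these data known.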

Additional observations from a re-analysis of the deposited data

How the results depend on the processing

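The 32 ovule calls and 15 leaf calls stayed within 1.5 times under both pseudocounts, without a filter, under TMM scaling, with DESeq2 size factors, in TPM and at 4-fold. Leaf calls were 9 with the filter at RPKM 5, with 20 reads or more, with an empty library at 3 reads and with 1 member per best match, the last chosen after seeing the data. They were 8 where the counting interval had to exclude 1, and 6 with RPKM summed per description, where ovule calls were 16. Among assembled sequences alone ovule calls were 20. The median log2 ratio lay between 0.47 (assembled sequences) and 1.96 (RPKM of at least 5) in the 12 settings run. The 9.55-fold excess of summed reads was 8.58 under TMM scaling, 6.49 among assembled sequences, 6.50 without the early nodulin, and 3.65 without both most-read members, a setting chosen after seeing the data. Without the most-read member the ratio was 41.7 for the early nodulin-like pair, against 0.463, and 0.602 for the other proline-rich class, against 87.3. Over the whole reference, the median shifted by -0.14 (log2) under TMM and -0.15 in TPM. On the log2 scale, these scalings put CL237.Contig3 and Unigene400 past 2-fold toward leaf and took Unigene15464 below it. On the same scale Unigene24127 fell below 2-fold under TMM scaling and with a pseudocount of 1. Members with 1 to 3 reads in either library are limited by depth. No paired analysis was possible because each tissue has 1 library.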
